A study of Rattus norvegicus with 24 samples.

Results

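Metallothioneins are small cysteine-rich proteins that hold zinc and copper in the cytosol and also bind toxic metals such as cadmium. In rodents the liver makes 2 of them in quantity, Mt1 and Mt2A, which have overlapping roles in zinc storage and in buffering reactive species. Their genes are classic targets of MTF-1, a zinc-sensing transcription factor that binds metal response elements, and they also respond to glucocorticoid, to interleukin-6 and to fasting. The members described here are the probe sets whose platform annotation names only Mt1 or only Mt2A. There is 1 for each gene, which makes 2 probe sets among 31139 on the array and 2 genes among 13439 tested. A further probe set names both Mt1 and Ttr, the gene of the plasma carrier transthyretin. It is no member by this rule and is shown only beside Mt1.

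Liver RNA of 24 male Sprague Dawley rats, 8 weeks old, was measured on 24 arrays, 1 rat per array, in 4 groups of 6. Each rat received a single dose by stomach tube at 10 ml/kg, either corn oil alone (vehicle) or ANIT at 50 mg/kg in corn oil. ANIT is alpha-naphthylisothiocyanate, a compound used to damage bile ducts and cause cholestasis in rats. Rats were killed 24 h after dosing, labelled as the time of peak injury, or 120 h after dosing, labelled as the time of repair. All 4 groups shared an overnight fast of about 18 h before necropsy and an injection of 100 mg/kg BrdU, a thymidine analogue, about 2 h before it. These groups therefore hold no fed liver and no untreated liver. Since whole liver was used, fewer cells of a type and less RNA per cell cannot be told apart. The liver label was borne out by hepatocyte genes, with Alb, the albumin gene, at a group mean of 13.1 to 13.3 on the log2 scale.

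In the reference annotation Mt1 and Mt2A lie next to each other on chromosome 19, between Nup93 on one side and Mt3 and Mt4 on the other. All 4 metallothionein genes read from the minus strand in assembly GRCr8. The 250 bases before each annotated gene start are printed because they carry the metal response elements through which MTF-1 acts. The sequences are RefSeq's in GRCr8, written on the gene's own strand. Capitals mark the core of the metal response element, TGCACNC or TGCGCNC on either strand, and the TATA box, TATAAA, near the end of each sequence.
Mt1, chr19:10832976-10833225, minus strand: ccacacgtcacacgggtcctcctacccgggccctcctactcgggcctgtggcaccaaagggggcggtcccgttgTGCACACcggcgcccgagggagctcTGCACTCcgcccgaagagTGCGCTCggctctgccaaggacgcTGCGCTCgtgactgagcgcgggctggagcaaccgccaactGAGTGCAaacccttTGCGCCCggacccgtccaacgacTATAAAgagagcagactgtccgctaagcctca
Mt2A, chr19:10838709-10838958, minus strand: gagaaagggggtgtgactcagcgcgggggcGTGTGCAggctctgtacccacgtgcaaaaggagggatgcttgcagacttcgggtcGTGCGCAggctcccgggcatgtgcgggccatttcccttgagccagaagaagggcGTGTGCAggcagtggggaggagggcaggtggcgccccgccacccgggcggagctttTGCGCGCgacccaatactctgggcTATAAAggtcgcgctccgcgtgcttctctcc

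The Mt1 sequence held 6 matches to the element core, 5 on the gene strand and 1 on the other, between base -176 and base -49 from the gene start. The Mt2A sequence held 4 matches between base -220 and base -49, of which 3 lay on the other strand. Of 33465 rat sequences of the same 250-base length, 20.6% held at least 1 match on either strand, 0.266% held at least 4 and 0.0269% held at least 6. Both sequences had a TATAAA on the gene strand, starting at base -32 in Mt1 and at base -31 in Mt2A, which 8.06% of the sequences had somewhere. Both had 1 match to TGACNNNGC, the core of the antioxidant response element, as did 10.1% of sequences on either strand. Mt2A alone of the pair had CACGTG, the E-box, found in 5.59% of sequences. Neither held the palindromic glucocorticoid response element with its 3-base spacer, searched in its consensus form on both strands, which 4 of the 33465 sequences held. The matches did not overlap one another. With 24 CpG dinucleotides in Mt1 and 21 in Mt2A, against a median of 5, both sequences were rich in CpG. For comparison, Mt3 held 3 element cores and Mt4 held 1. A match of letters is a description of the sequence and not evidence of binding.

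**Figure D1:**
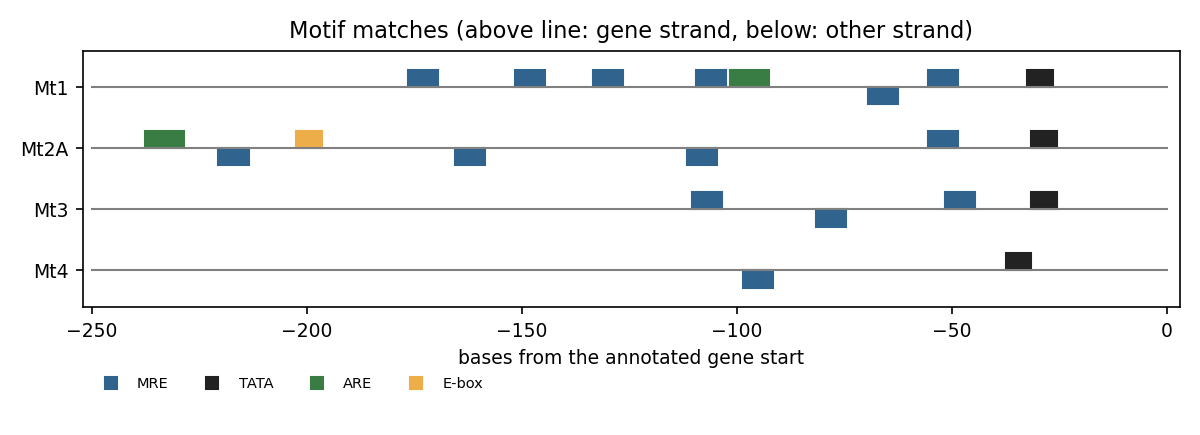
Positions of motif matches in the 250 bases before the annotated start of Mt1, Mt2A, Mt3 and Mt4, in bases from the start (x axis), with matches on the gene strand above each line and those on the other strand below it. Metal response element cores (MRE) number 6 in Mt1, 4 in Mt2A, 3 in Mt3 and 1 in Mt4, and each sequence has a TATA box near its right end.

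The arrays differed in spread, and this touches genes at the top of the range. The deposited log2 values ran from 2.34 to 13.5, array SDs from 1.84 to 2.09, and the highest value on an array from 13.2 to 13.5. The 6 arrays with the smallest SD were replicates 3, 4 and 5 of vehicle at 24 h and replicates 4, 5 and 6 of ANIT at 120 h, and the mean level of 9 spiked control probe sets ran from 10.5 to 11.7 over the arrays. Vehicle replicate 5 of 24 h had the smallest SD and the highest spiked control level of all 24 arrays. RNA quality, read as the log2 ratio of the 3' to the 5' probe set for beta-actin, followed the groups at 24 h. It was 2.98 to 3.18 in ANIT rats and 2.77 to 2.91 in vehicle rats of 24 h.

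Mt2A rose in ANIT rats at 24 h. Its log2 value in vehicle rats of 24 h was lowest at 12.48, had a median of 12.59 and was highest at 13.00. In ANIT rats of 24 h it was lowest at 13.01, had a median of 13.07 and was highest at 13.10. All 6 ANIT rats thus lay above all 6 vehicle rats, though only just above vehicle replicate 5, which stood apart from the other 5 vehicle rats at 12.48 to 12.64. Such a separation upward was found in 5.55% of all genes at this time. The group means were 13.06 ± 0.03 (SD, n = 6) in ANIT and 12.64 ± 0.19 (SD, n = 6) in vehicle rats. The change was 0.43 ± 0.08 on the log2 scale (standard error), or 1.34-fold with a 95% interval of 1.20 to 1.50, with a limma adjusted p of 0.00024 over 13439 genes. A gene was called at an adjusted p under 0.05, and 18.2% of all genes passed in this comparison, with 12.9% in the upward and 5.31% in the downward direction. The exact permutation test on the 12 rats gave its smallest possible two-sided p of 0.0022 (0.0087 adjusted over 8 tests of the levels of both genes). With that actin ratio as a covariate the change was 0.44 with a limma adjusted p of 0.019, and without vehicle replicate 5 it was 0.50.

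Mt1 did not pass the test at 24 h. Its log2 value in vehicle rats was lowest at 12.60, had a median of 12.69 and was highest at 12.94, again in vehicle replicate 5. In ANIT rats it was lowest at 12.73, had a median of 12.80 and was highest at 12.95. The groups overlapped. Of the vehicle rats 4 of 6 lay below every ANIT rat and the overlap came from vehicle replicates 2 and 5, at 12.78 and 12.94, while 1 ANIT rat lay above every vehicle rat. The means were 12.82 ± 0.08 (SD, n = 6) in ANIT and 12.72 ± 0.13 (SD, n = 6) in vehicle rats. The difference was 0.10 ± 0.07 on the log2 scale, 1.07-fold, with a limma adjusted p of 0.34 and an exact permutation p of 0.13 (0.18 adjusted over 8 tests of the levels of both genes). Its 95% interval, 0.97-fold to 1.19-fold, leaves room for a small rise. The probe set that names Mt1 and Ttr gave 0.21 ± 0.07 at 24 h, 1.16-fold, with a limma adjusted p of 0.043 over all probe sets, and 13.03 ± 0.08 in ANIT against 12.82 ± 0.12 in vehicle rats (SD, n = 6). The probe set that stood for Ttr, which names only that gene, had a value of -0.17 ± 0.06, in the other direction (limma adjusted p = 0.063 over all genes). Which transcript the shared probe set reads was not tested.

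**Figure D2:**
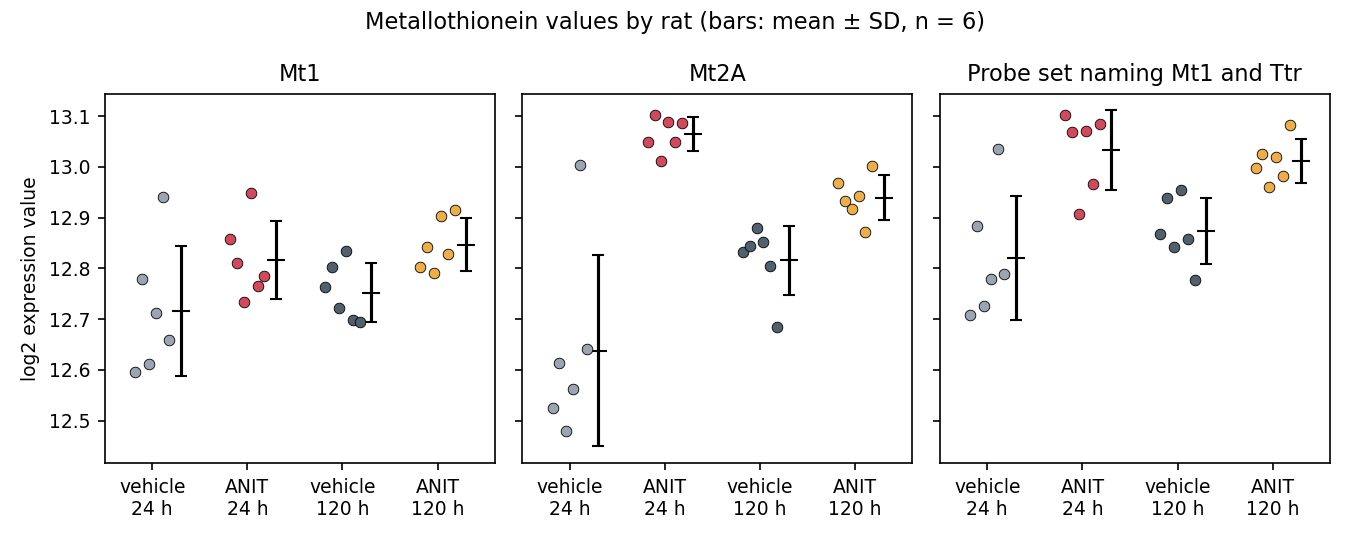
Log2 expression value (y axis) of each rat in the 4 groups for Mt1, Mt2A and the probe set naming Mt1 and Ttr. Points are single rats in replicate order and bars are the mean ± SD of 6. In the Mt2A panel the 6 ANIT rats of 24 h lie between 13.01 and 13.10, above all vehicle rats, while the Mt1 groups overlap. Levels are not comparable between panels.

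The probe sets of the 2 genes changed by unequal amounts at 24 h. The log2 difference Mt1 minus Mt2A within a rat averaged 0.08 ± 0.09 (SD, n = 6) in vehicle rats and -0.25 ± 0.07 (SD, n = 6) in ANIT rats. All 6 ANIT rats lay below all 6 vehicle rats, a shift of -0.33 (two-sided exact permutation p = 0.0022, the smallest possible, adjusted p = 0.0043 over both times). With the shared Mt1 and Ttr probe set in place of Mt1 the shift was -0.21 (exact permutation p = 0.0043), with 5 of 6 ANIT rats below every vehicle rat. At 120 h the same shift was -0.03 (exact permutation p = 0.37). The genes are close relatives, and whether the probes for one also catch the transcript of the other was not tested. Nor was it tested whether the probe sets respond alike at this height of the scale.

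At 120 h neither gene passed the test over all genes. In vehicle rats Mt2A was lowest at 12.69, had a median of 12.84 and was highest at 12.88. In ANIT rats it was lowest at 12.87, had a median of 12.94 and was highest at 13.00. Of the 6 ANIT rats 5 lay above every vehicle rat, a degree of separation upward or more that 1.92% of all genes had. The means were 12.94 ± 0.04 (SD, n = 6) in ANIT and 12.82 ± 0.07 (SD, n = 6) in vehicle rats. The difference was 0.12 ± 0.08 on the log2 scale, 1.09-fold with a 95% interval of 0.98 to 1.22 (limma adjusted p = 0.49). For this pair of groups by itself the exact permutation p was 0.0043, or 0.012 after adjustment over the 8 such tests on both genes. With only these 2 groups in the limma fit the standard error was 0.07 and the limma adjusted p 0.50. Limma draws the spread of each gene toward that of other genes. Few genes had a smaller SD than Mt2A, 0.268% in ANIT and 3.45% in vehicle rats of 120 h. The limma interval is therefore not the spread of Mt2A among these rats alone. With a prior that follows the level of the genes (trended and robust) the standard error was 0.06 and the limma adjusted p 0.33.

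Mt1 at 120 h ran from 12.69 to 12.83 in vehicle rats, with a median of 12.74. It ran from 12.79 to 12.92 in ANIT rats, with a median of 12.83. The groups overlapped, with 3 of 6 ANIT rats above every vehicle rat, a degree of separation or more that 17.3% of all genes had. The difference was 0.09 ± 0.07 on the log2 scale, 1.07-fold with a 95% interval of 0.97 to 1.18 (limma adjusted p = 0.57, exact permutation p = 0.024, or 0.048 adjusted over the 8 tests). In this comparison 2.02% of all genes passed, 0.513% upward and 1.51% downward.

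The order of the Mt2A levels was ANIT at 24 h, ANIT at 120 h, vehicle at 120 h and vehicle at 24 h. Neighbours in that order did not differ by the test over all genes. ANIT at 120 h minus ANIT at 24 h was -0.13 ± 0.08 (limma adjusted p = 0.28), where 21.1% of all genes were called. All 6 rats of the later group lay below all 6 of the earlier one (exact permutation p = 0.0022, adjusted p = 0.0087 over the 8 tests), as 6.14% of all genes did. The vehicle groups differed by 0.18 ± 0.08, the later one higher (limma adjusted p = 0.37, exact permutation p = 0.056, or 0.090 adjusted over the 8 tests), where 0.00744% of all genes were called. For Mt1 the order was ANIT at 120 h, ANIT at 24 h, vehicle at 120 h and vehicle at 24 h, with means from 12.85 down to 12.72. Its vehicle groups differed by 0.04 ± 0.07 (limma adjusted p = 0.82) and its ANIT groups by 0.03 ± 0.07 (limma adjusted p = 0.82).

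The test of whether the ANIT effect differed between times gave -0.30 ± 0.11 for Mt2A, the effect being smaller at 120 h, with a limma adjusted p of 0.062, where 14.3% of all genes were called. This value did not pass the threshold, and it passed in 8 of 10 alternative analyses (adjusted p from 0.012 to 0.049). These share the same arrays and are not independent support. With probe set means, dim genes left out or a trended robust prior the value itself stayed at -0.30. Only its standard error or the adjustment changed there, and Mt2A has 1 probe set. It also passed without vehicle replicate 5 of 24 h, at -0.38 with an adjusted p of 0.0063. Both the change between the ANIT groups (-0.13, the later lower) and that between the vehicle groups (0.18, the later higher) enter the main value. For Mt1 the same difference was -0.01 ± 0.10 (limma adjusted p = 0.97).

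**Figure D3:**
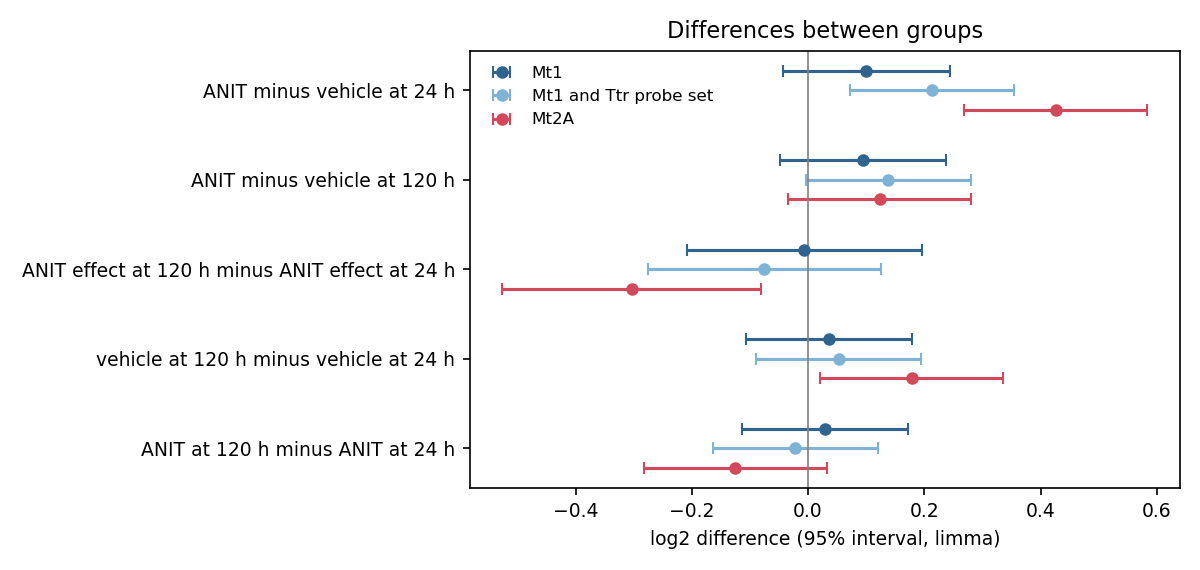
Log2 differences between groups (x axis, with 95% intervals from the limma fit over all probe sets) for Mt1, the probe set naming Mt1 and Ttr, and Mt2A. Of the values of Mt1 and Mt2A drawn, the Mt2A difference of 0.43 at 24 h alone has an adjusted p under 0.05, and the shared probe set is at 0.21 at that time.

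Both genes varied little among rats of a group. The SD of Mt2A was 0.03 in ANIT rats of 24 h and 0.04 in ANIT rats of 120 h, below that of all but 0.216% and 0.268% of genes in those groups. In vehicle rats of 24 h it was 0.19, and 31.0% of genes had a smaller SD. The SD of Mt1 ran from 0.05 in ANIT rats of 120 h to 0.13 in vehicle rats of 24 h, against a median SD over genes of 0.19 to 0.25.

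These small spreads and changes belong to values at the top of the scale. Mt2A in ANIT rats of 24 h lay only 0.26 to 0.43 below the highest value on the same array. Among the 37 genes with the highest means over all arrays, the median absolute change at 24 h was 0.10, against 0.19 over all genes. Only 1 of the 37, the acute phase gene Orm1 at 0.95, changed upward by more than Mt2A. Over all genes, 12.1% had a change above that of Mt2A at 24 h and 37.5% one above that of Mt1. Whether the readings of Mt1 and Mt2A were compressed at this height was not tested.

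The correlations of Mt1 with Mt2A among rats of a group did not pass the test after adjustment. In vehicle rats of 24 h Pearson's r was 0.91 (exact permutation p = 0.022, adjusted p = 0.089 over 4 groups) and Spearman's rho was 0.77 (exact permutation p = 0.10, adjusted p = 0.30). Without the 2 rats farthest from the median of Mt1, r was 0.53. Leaving out extreme values of Mt1 narrows its range and can itself lower r, so this cannot show whether the relation rested on those rats. In the other 3 groups r was 0.50 to 0.55 (exact permutation p from 0.27 to 0.32, adjusted p = 0.32) and rho was 0.54 to 0.66 (exact permutation p from 0.18 to 0.30, adjusted p = 0.30). Without the 2 farthest rats r was -0.14 in ANIT rats of 24 h, 0.57 in vehicle rats of 120 h and -0.29 in ANIT rats of 120 h. Against the spiked control level the adjusted p was 0.067 or more in every group for both genes (exact permutation test, 4 groups). Pearson's r with that level was 0.42 to 0.79 for Mt1 and -0.32 to 0.62 for Mt2A. The largest rho was 0.94, for Mt1 in ANIT rats of 120 h (exact permutation p = 0.017, adjusted p = 0.067). Without the 2 farthest rats r for Mt1 ran from -0.38 to 0.61. With 6 rats per group these tests cannot show that a relation is absent.

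**Figure D4:**
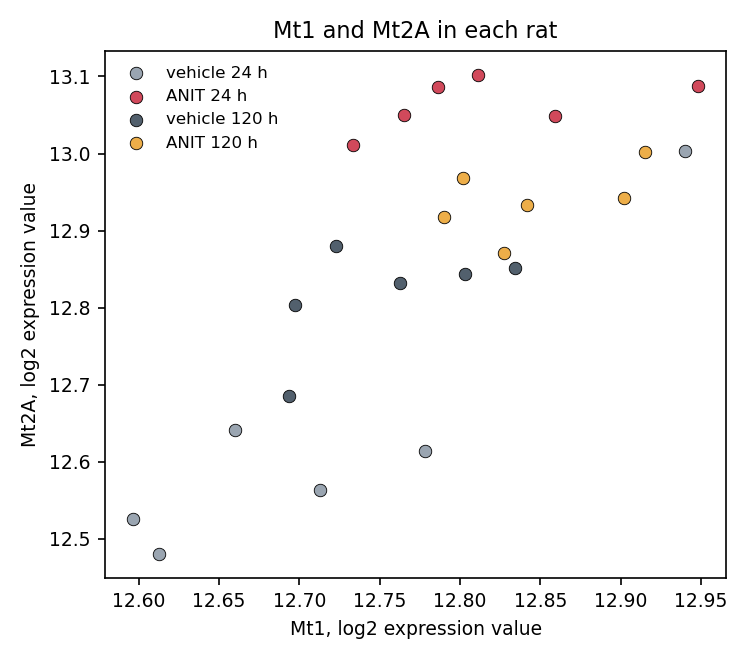
Mt2A (y axis) against Mt1 (x axis), both as log2 expression values, with 1 point per rat coloured by group. The ANIT rats of 24 h form a band between 13.01 and 13.10 in Mt2A over Mt1 values of 12.73 to 12.95, where the vehicle rats of 24 h run from 12.60 to 12.94, and vehicle replicate 5 of 24 h sits at the upper right at 12.94 and 13.00.

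Over all 24 arrays the gene most like Mt1 was Mt2A (Pearson r = 0.74), followed by C13h1orf21 (0.73), Tagln3 (0.70), Slc35f2 (0.70) and Crisp3 (0.68). Apart from Mt2A, these genes had group means of 3.06 to 5.14, below every array median (5.34 to 5.54). Seen from Mt2A, the most similar genes were Lurap1l (0.85), Myo1e (0.81), Fmo5 (0.77), Chpf (0.76) and Sf3a3 (0.76), and Mt1 ranked 10. Fmo5 is a flavin-containing monooxygenase, Myo1e an unconventional myosin, Chpf a chondroitin synthesis factor and Sf3a3 a splicing factor. These r values include the differences between groups, so the choice itself favours genes that differ as Mt2A does at 24 h. As a description, the log2 changes of the 5 at that time were 0.30 to 1.90. With group means removed, the genes most like Mt1 were LOC100910554 (0.83), Meig1 (0.79), Lrrn4cl (0.77), Ephx4 (0.76) and Mt2A (0.76). Those most like Mt2A were Meig1 (0.80), Svs5 (0.78), Mt1 (0.76), Cyp2j10 (0.73) and Loricrin (0.72). Apart from Mt1, Mt2A and Cyp2j10, the genes named with group means removed had group means of 2.81 to 4.66, also below every array median. Some of these likenesses leaned on 1 rat. Without vehicle replicate 5 of 24 h, the r of Mt1 with Mt2A was 0.52, that of Mt2A with Meig1, whose group means of 2.81 to 2.85 lie near the lowest value of the table, was 0.43, that of Mt2A with Svs5 was 0.17 and that of Mt2A with Loricrin was 0.12. The arrays share normalization and depth of signal, so these r values are a description.

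Of the other metallothionein genes, Mt3, best known in brain, had means of 6.00 to 6.18 and a difference of 0.02 ± 0.14 at 24 h (limma adjusted p = 0.94). Mt4, best known in stratified epithelium, rose from 5.08 ± 0.11 to 5.40 ± 0.20 (SD, n = 6) at 24 h, a change of 0.32 ± 0.10 (limma adjusted p = 0.021), at a low level on the scale. So 2 of the 4 measured metallothionein genes, Mt2A and Mt4, rose at 24 h, where 12.9% of all genes were called upward. The median change of the 4 was 0.21 against 0.0046 over all genes. At 120 h limma called 0 of the 4, and 0 had an unadjusted p under 0.05, against 1865 of all 13439 genes.

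Zinc transporters changed in both directions at 24 h. The share of all genes called at this time was 12.9% upward and 5.31% downward, with a median change of 0.0046. Of 8 measured Slc30 genes, which move zinc out of the cytosol, 3 rose and 1 fell (median 0.33). Slc30a5 and Slc30a7, which load zinc into the secretory pathway, rose by 0.80 ± 0.11 (limma adjusted p = 1.1e-05) and 1.17 ± 0.23 (0.00063), while Slc30a3 fell by 0.72 ± 0.17 (0.0037). Slc30a1 is the zinc exporter of the plasma membrane and, like the metallothioneins, a known MTF-1 target in mouse. Its value was 0.01 ± 0.15 (limma adjusted p = 0.98), at a mean of 3.48 in vehicle rats of 24 h, low on the scale. Of 11 Slc39 genes, which bring zinc into the cytosol, 5 rose and 1 fell (median 0.39). Slc39a14, the zinc importer that interleukin-6 raises in mouse hepatocytes, went from 11.17 to 11.74, a rise of 0.57 ± 0.07 (limma adjusted p = 2.2e-06). Slc39a7, which releases zinc from the endoplasmic reticulum, rose by 0.81 ± 0.12, and Slc39a10 by 1.10 ± 0.21. At 120 h, where 1.51% of all genes were called downward, Slc39a8 alone among the 19 transporters was called, at -0.59 ± 0.15 (limma adjusted p = 0.040). Slc39a8 was lower at 24 h too, at -0.48 ± 0.15 (0.025). Slc39a4, the intestinal zinc importer, which had risen by 0.69 ± 0.21 at 24 h, had a value of -0.45 ± 0.21 (0.34). Slc30a5 was at -0.28 ± 0.11 (0.24) and Slc30a4 at -0.25 ± 0.13 (0.40). At 120 h 1 of the 8 Slc30 genes had an unadjusted limma p under 0.05, as had 1865 of all 13439 genes. Slc39a14 at 120 h had a value of 0.01 ± 0.07, and its effect differed between times by -0.57 (limma adjusted p = 0.00047).

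Of 12 measured copper handling genes 2 rose and 0 fell at 24 h (median 0.06), which is near the 12.9% of all genes called upward. These were Steap4, a metalloreductase, by 0.70 ± 0.08 (limma adjusted p = 6.2e-07) and Cp, the plasma copper carrier ceruloplasmin, by 0.28 ± 0.08 (0.015). Cox17, a mitochondrial copper chaperone, had a value of 0.29 ± 0.14 (0.16). At 120 h limma called 0 of the 12, with 2 at an unadjusted p under 0.05, as were 1865 of all 13439 genes. Slc31a1, the copper importer, had a value of -0.34 ± 0.11 (0.13) and Sod1, copper-zinc superoxide dismutase, -0.16 ± 0.07 (0.31).

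**Figure D5:**
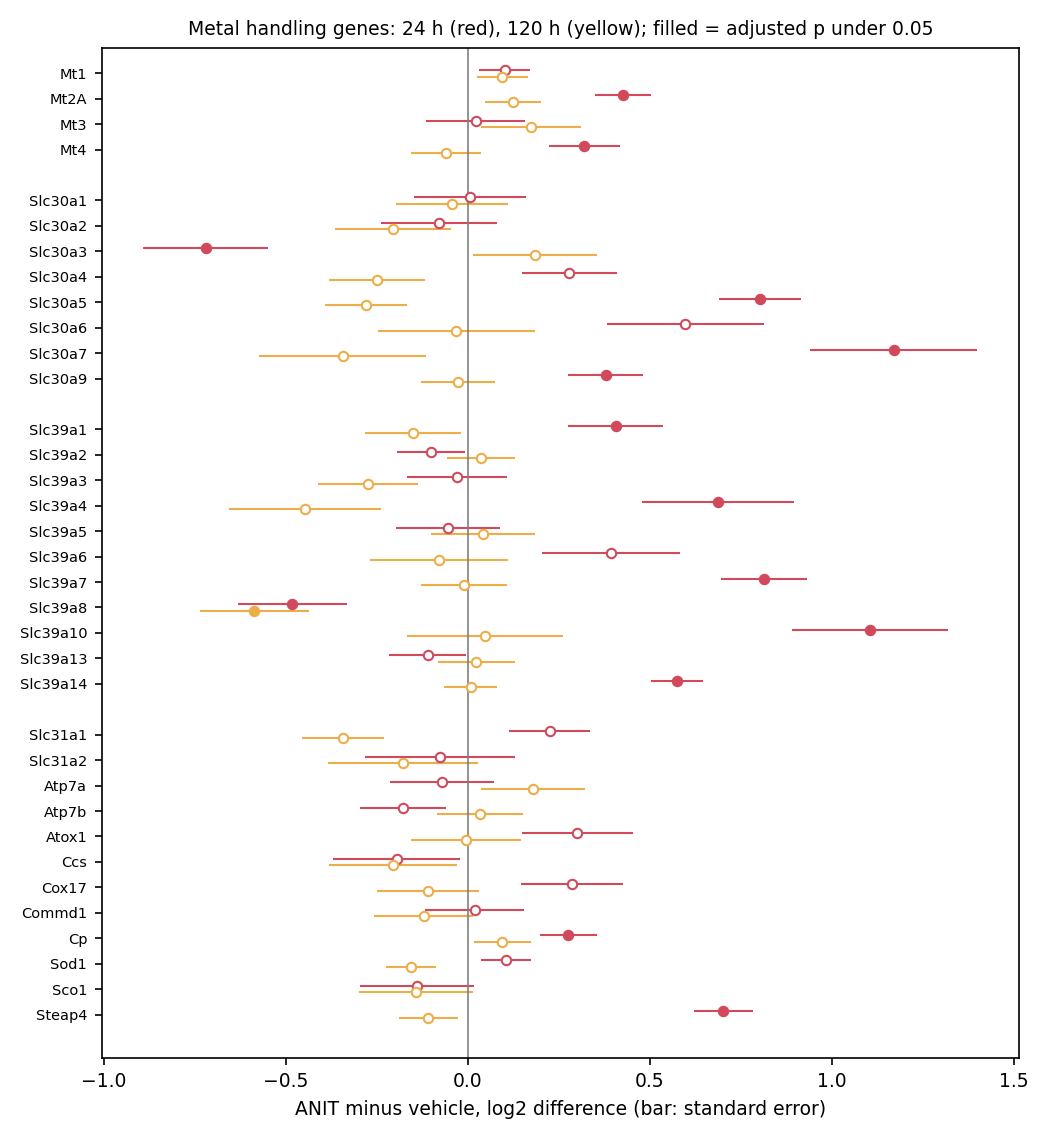
ANIT minus vehicle as a log2 difference (x axis, bars are standard errors) for each measured metallothionein, Slc30, Slc39 and copper handling gene at 24 h (red) and 120 h (yellow), with filled points for an adjusted p under 0.05. At 24 h 2, 4, 6 and 2 genes of the 4 blocks are filled, and at 120 h only Slc39a8 is.

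Among 8 transcription factors listed as regulators of metallothionein genes, 2 rose and 1 fell at 24 h (median 0.0012). Over all genes 12.9% were called upward and 5.31% downward, with a median of 0.0046. Mtf1 had a value of -0.01 ± 0.09 at 24 h (limma adjusted p = 0.96) and -0.0022 ± 0.09 at 120 h, at means of 6.16 to 6.22. Nr3c1, the glucocorticoid receptor, fell by 0.55 ± 0.13 at 24 h (limma adjusted p = 0.0030) and had a value of -0.07 ± 0.13 at 120 h. Stat3, which carries the interleukin-6 signal, rose by 1.52 ± 0.19 (limma adjusted p = 1.9e-06), and Cebpd by 0.55 ± 0.16 (0.015). At 120 h limma called 0 of the 8, with 1 at an unadjusted p under 0.05, as were 1865 of all 13439 genes. Nfe2l2, the gene of Nrf2, had a value of 0.31 ± 0.11 (0.19) and Usf1 0.17 ± 0.12 (0.57) at that time.

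Genes that glucocorticoid raises were higher in part. Of 14 measured, 7 rose and 0 fell at 24 h (median 0.34), and 2 rose and 1 fell at 120 h. Over all genes 12.9% were called upward and 5.31% downward at 24 h, and 0.513% and 1.51% at 120 h. Lcn2, an iron-sequestering acute phase protein, is on the glucocorticoid list and rose by 5.33 ± 0.36. Ddit4, an inhibitor of mTOR signalling, rose by 1.12 ± 0.16 and Tdo2, which degrades tryptophan, by 0.67 ± 0.10. At 120 h Tdo2 was up by 0.43 ± 0.10 (limma adjusted p = 0.024), Lcn2 by 1.72 ± 0.36 (0.011), and the phosphatase gene Dusp1 was at -0.85 ± 0.17 (0.0064). A further list of 18 genes covers the interleukin-6 and STAT3 response, including the pathway's own genes Il6r, Il6st and Stat3. Of these 18, 14 rose and 0 fell at 24 h (median 0.43), and 1 rose and 1 fell at 120 h. A2m, alpha-2-macroglobulin, rose by 3.95 ± 0.32 and Orm1 by 0.95 ± 0.10. At 120 h Hamp, the iron hormone hepcidin, was up by 1.50 ± 0.34 (0.019) and Il6r, the interleukin-6 receptor, was at -0.63 ± 0.17 (0.046). Stat3, given above, and Slc39a14, Cebpd and Cp also belong to the interleukin-6 list. The lists were written with earlier results of these rats known, so their counts are not independent evidence of a direction.

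Of 13 measured Nrf2 target genes 7 rose and 2 fell at 24 h (median 0.33), where 12.9% of all genes were called upward and 5.31% downward. Nqo1, a quinone reductase, rose by 1.60 ± 0.25, Gsta3, a glutathione transferase, by 2.02 ± 0.39 and Me1, malic enzyme, by 0.96 ± 0.22. At 120 h limma called 0 of the 13, with 5 at an unadjusted p under 0.05, as were 1865 of all 13439 genes. Hmox1, which degrades haem, had a value of 0.58 ± 0.18 (limma adjusted p = 0.088) and Me1 -0.63 ± 0.22 (0.15) at that time. Of 13 fasting response genes 1 rose and 6 fell at 24 h (median -0.11), and 0 rose and 2 fell at 120 h, where 1.51% of all genes were called downward. This list mixes genes that fasting raises with genes that it lowers, so its counts and median give no direction with respect to fasting. Fasn, fatty acid synthase, which fasting lowers, rose by 2.76 ± 0.20, while Cpt1a, which admits fatty acids to mitochondria, and G6pc1, the glucose-releasing phosphatase, which fasting raises, were at -1.06 ± 0.11 and -1.66 ± 0.19, both called. At 120 h Cpt1a was at -0.43 ± 0.11 (0.046) and the hormone gene Fgf21 at -1.52 ± 0.30 (0.0076). All these rats were fasted, so these counts set ANIT against vehicle within fasting.

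Some markers of other cells were called too. Over all genes 12.9% were called upward and 5.31% downward at 24 h, and several of the small marker counts lie near these shares. At 24 h 2 of 4 measured neutrophil markers rose, S100a8 and S100a9, and the mean log2 level of the 4 was 5.42 to 5.94 in ANIT and 4.65 to 5.56 in vehicle rats. Of 7 hepatocyte markers limma called 0 at 24 h, 3 having an unadjusted p under 0.05, as had 4160 of all 13439 genes. The mean level of the 7 was 12.63 to 12.79 in ANIT and 12.81 to 12.85 in vehicle rats. Of 6 macrophage and Kupffer cell markers 1 rose, Cd163 by 0.38 ± 0.10, at a mean level of 8.67 to 8.98 in ANIT and 8.63 to 8.99 in vehicle rats. The counts that rose and fell were 0 and 2 of 5 lymphocyte, 0 and 2 of 7 stellate cell and fibroblast, 1 and 2 of 4 endothelial, 0 and 0 of 6 cholangiocyte, 0 and 0 of 2 erythroid and 1 and 1 of 5 pancreatic acinar markers. At 120 h 2 of 6 cholangiocyte markers, Krt19 and Cftr, and 1 of 6 macrophage markers, Cd163, rose, where 0.513% of all genes were called upward. No marker of the other 7 lists was called at 120 h. The part of these cells in the Mt2A value was not tested.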

How the data were processed

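Liver total RNA was amplified with the NuGEN Ovation system, labelled with biotin and hybridised to 1-colour Affymetrix arrays, 1 per rat, per the labels' protocols. The deposited log2 values per probe set had been normalized by the authors with RMA in Partek, per the submitters' processing notes (the settings were not stated). RMA brings arrays to a common distribution, but the deposited columns still differed in spread.

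Of 31139 probe sets, 19069 name 1 gene in the platform annotation, 572 name several and 11498 are unnamed here. The probe set with the highest mean stood for each of 13439 genes. The 4 groups of 6 were fitted together with limma 3.58.1 in R 4.3.3, with no filter on low values and Benjamini-Hochberg adjustment over all genes. Calls were made at an adjusted p under 0.05. Exact permutation tests of single values are two-sided and, for the levels, also adjusted over the 8 tests made. The fit was also run on simulated independent values. These lacked the differences in spread between arrays, so that run cannot speak to them. Promoter sequences are RefSeq's in GRCr8.

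The members and the gene lists were chosen with earlier results of these data known. Named from each list were the 3 genes with the smallest p at 24 h and the 2 at 120 h, always Mtf1, Slc30a1, Slc39a14 and Nr3c1, and the 5 genes most like each member by Pearson r. Markers called were named after their values were seen. Alternatives were other scalings, covariates, probe set rules, prior settings, weights and left-out arrays. Replicate numbers follow accession order, and the number of arrays limits the precision.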

Additional observations from a re-analysis of the deposited data

Results flagged for a closer look

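Mt2A in 1 vehicle rat of 24 h, replicate 5, was 13.00 on the log2 scale, while the other 5 rats of its group lay between 12.48 and 12.64. The gap to its nearest neighbour was 0.693 of the group's range, above Dixon's critical value of 0.625 for 6 samples. Both genes were tested in 4 groups each, 8 in all, and chance alone marks about 5% of groups. The array of this rat stood at the end of the range of all 24 arrays in 4 measures, with the smallest SD (1.84), the highest median (5.54), the highest top value (13.50) and the highest spiked control level (11.7). The part of this in the Mt2A value was not tested. Mt1 was also highest of its group in this rat, at 12.94, where the gap was 0.470 of the range.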

How the results depend on the processing

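The rise of Mt2A at 24 h was called in every alternative run, at 0.43 to 0.50 under the 11 other settings (limma adjusted p up to 0.019, with the actin ratio as a covariate) and at 0.40 to 0.50 with single arrays left out. The smaller Mt2A effect at 120 h than at 24 h, uncalled at -0.30, was called under quantile normalization (-0.35), a common median (-0.41), the spiked control level (-0.35) or array SD (-0.34) as a covariate, the mean of all probe sets of a gene (-0.30), dim genes left out (-0.30), a trended robust prior (-0.30) and array weights (-0.31). With single arrays left out it ran from -0.38 to -0.27, and it was called only without vehicle replicate 5 of 24 h. With the actin ratio it was -0.32 (limma adjusted p = 0.33) and without the 6 arrays of smallest SD -0.35 (0.056), both uncalled. The cause was not tested. Mt1 stayed uncalled in every comparison except with the probe set naming Mt1 and Ttr in its place, an alternative chosen after seeing the data, which gave 0.21 at 24 h. Its difference between ANIT groups, 0.03, changed sign with a common median (-0.024), the spiked controls (-0.0008), the array SD (-0.0026), the actin ratio (-0.017), without the 6 arrays (-0.0058) and with the shared probe set (-0.022), which also turned the 120 h difference between Mt1 and Mt2A to 0.015. Its effect at 120 h minus that at 24 h ran from -0.051 to 0.020 with single arrays left out, with 9 of 24 of opposite sign.

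Counts of genes called moved too. At 24 h, 2452 genes became 908 with the actin ratio and 1555 without the 6 arrays. At 120 h, 272 became 460 with quantile normalization, 143 with a common median, 674 with the spiked controls, 652 with the array SD and 176 with only the 2 groups fitted, and ran from 152 to 343 with single arrays left out. For the difference of effects, 1925 became 439 with the actin ratio and 855 without the 6 arrays, and ran from 1431 to 3149. Between vehicle groups, 1 gene became 17 with quantile normalization, 3 with the spiked controls, the array SD or probe set means, 2 with the actin ratio, 0 by limma without the 6 arrays (603 at an unadjusted p under 0.05) or with only the 2 groups fitted (1744), 13 with the trended robust prior and 149 with array weights, and ran from 1 to 175. Between ANIT groups, 2833 became 881 with the actin ratio. Fitting only 2 groups gives no difference of effects. No paired analysis was possible because the replicate numbers follow accession order and the labels pair no rats. Both genes lie near the top of the array range, and whether this narrowed their differences was not tested.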
